A study of Mus musculus with 6 samples.

Results

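The replication-dependent histone cluster genes were examined in ovaries of wild-type and Bnc1tr/tr mice. They were taken as all listed genes whose older symbol starts with Hist1h, Hist2h, Hist3h or Hist4h and that had 10 or more counts summed over the 6 ovaries. Such a symbol was carried by 70 of the 44788 genes listed, and 65 of these reached 10 counts. The 65 members comprised 5 H1, 20 H2A, 15 H2B, 12 H3 and 13 H4 genes, with 52 in cluster 1, 10 in cluster 2, 2 in cluster 3 and 1 in cluster 4, and 2 of them (Hist1h2al and Hist1h2aj) are annotated as pseudogenes.

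RNA was sequenced from ovaries of Bnc1+/+ (WT) mice (replicates 1, 4 and 7) and of Bnc1tr/tr mice (replicates 1, 2 and 3), all on the C57BL/6 J strain and 8 weeks old. Bnc1tr is a frameshift allele with a premature stop codon, and Bnc1tr/tr mice carry it on both copies in every cell, so that an effect in an ovary is not tied to any of its cell types. Both genotypes came from matings of heterozygous mice, the study's methods state that littermates were compared, the labels name no litter for a library, no other allele or treatment is given for either group, and the sources used here do not say how many mice each library holds. P-values therefore measure the spread between these libraries. The question addressed here is which cluster histone genes differ in RNA level between the genotypes.

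Histone proteins package DNA into nucleosomes: H3 and H4 form the inner core, H2A and H2B join it as dimers, and the linker histone H1 binds where DNA enters and leaves. The cluster genes are expressed mainly while DNA is copied. Most of their mRNAs lack a poly(A) tail and end in a short stem-loop, which is bound by the protein SLBP and is needed for processing, translation and timely decay. Some cluster genes, among them Hist1h1c, Hist1h2bc and Hist2h2be, are also known to give polyadenylated mRNA, which persists outside S phase. In the ovary, granulosa cells of growing follicles divide, whereas cells of the corpus luteum have mostly stopped dividing.

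The stem-loop was searched in GENCODE M21 transcripts of the GRCm38 build as GG, any 2 bases, CTTTT, any base, AG, any 2 bases and CC, on the transcript strand and downstream of the stop codon. It was present in 43 of the 65 members and, anywhere in the transcript, in 0.167% of 58797 protein-coding transcripts. It occurred as 6 sequences and began 24 to 61 bases after the last amino acid codon, with the stop codon counted in. The most frequent, in 26 members, was found in H1, H2A, H2B and H3 genes, whereas 7 H4 genes shared another. The following examples, printed with 5 flanking bases on each side and the stem-loop in capitals, show 5 members that passed the threshold below, the most abundant member (Hist1h1c), the most abundant H4 gene (Hist1h4i) and the neighbour of Hist2h2be (Hist2h2ac).
Hist1h1c: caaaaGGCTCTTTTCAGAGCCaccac
Hist1h1d: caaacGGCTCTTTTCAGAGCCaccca
Hist2h2aa2: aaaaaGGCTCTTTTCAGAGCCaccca
Hist2h2ac: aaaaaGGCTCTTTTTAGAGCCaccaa
Hist1h2bh: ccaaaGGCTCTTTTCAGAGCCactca
Hist1h2bb: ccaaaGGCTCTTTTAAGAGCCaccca
Hist2h3c2: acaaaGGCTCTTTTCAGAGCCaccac
Hist1h4i: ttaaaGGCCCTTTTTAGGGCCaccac
These letters were not found downstream of the stop codon of Hist2h2be, nor in the 2-exon transcript of Hist1h2bc. The single-exon transcript of Hist2h2be has 2195 bases there, the stop codon included. In 21 of the 43 members the annotated transcript ran 100 or more bases past the stem-loop, for example 840 bases in Hist1h1c and 1214 bases in Hist1h2bh, and in 22 it ended sooner.

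H2A and H2B genes often lie head to head. Among all 70 symbols 14 such pairs had starts within 500 bases of each other. The stretch between Hist2h2ac (on the minus strand) and Hist2h2be (on the plus strand) is shown because Hist2h2be passed the threshold below. It spans 238 bases at chr3:96220881-96221118 of GRCm38, from the RefSeq promoter record of Hist2h2ac up to the GENCODE start of Hist2h2be, and is printed on the plus strand, with capitals for the letters CCAAT, for the TATA box (TATAAA) and for the octamer ATTTGCAT, each in either orientation.
Hist2h2ac to Hist2h2be: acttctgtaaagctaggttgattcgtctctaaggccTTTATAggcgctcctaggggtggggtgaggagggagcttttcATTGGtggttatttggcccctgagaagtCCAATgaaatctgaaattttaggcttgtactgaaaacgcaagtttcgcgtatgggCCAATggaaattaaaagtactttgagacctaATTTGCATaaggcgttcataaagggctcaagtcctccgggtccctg
CCAAT is bound by the factor NF-Y, TATAAA is the TATA box, and ATTTGCAT is the octamer bound by POU factors. RefSeq promoters were matched for 58 members, Hist2h2be and Hist1h2bc not among them. In the 250 bases upstream, searched on both strands and without removing overlaps, CCAAT occurred in 81% of them against 33.8% of 32851 promoters of all genes. TATAAA occurred in 48.3% against 12.4%, and ATTTGCAT in 20.7% against 1.6%. CCAAT was present in all 18 matched H2A and all 13 matched H2B promoters but in 3 of 12 H4 promoters (25%), and ATTTGCAT was found in 38.9% of H2A and 38.5% of H2B promoters and in no H1, H3 or H4 promoter.

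Each library held 25247770 to 34406296 counts on genes. The members took 0.0258% to 0.0268% of them in WT and 0.0101% to 0.0184% in Bnc1tr/tr, and 45 of the 65 had a mean level under 1 CPM (a count scaled to a common library total, with TMM factors). One count equalled 0.0302 to 0.0385 CPM. Bnc1 itself was at 13.5 ± 0.407 CPM in WT and 14.6 ± 3.72 in Bnc1tr/tr (SD, n = 3 each, log2 fold change 0.12, edgeR adjusted p = 0.733), and counts per gene do not show the frameshift. The defining oocyte, granulosa and theca markers were present in every library (16, 12 and 6 of those listed). Because whole ovaries were sequenced, fewer cells of a type and less RNA per cell cannot be told apart.

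Cluster histone mRNA was lower in Bnc1tr/tr ovaries. The members together reached 271, 268 and 274 CPM in WT and 97.9, 178 and 148 CPM in Bnc1tr/tr, a 1.91-fold difference between the means. All 3 Bnc1tr/tr ovaries lay below the WT ovaries, and replicate 1 was the lowest. Hist1h1c, Hist3h2a, Hist1h2bc and Hist2h2be held 73% of the summed level.

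**Figure D1:**
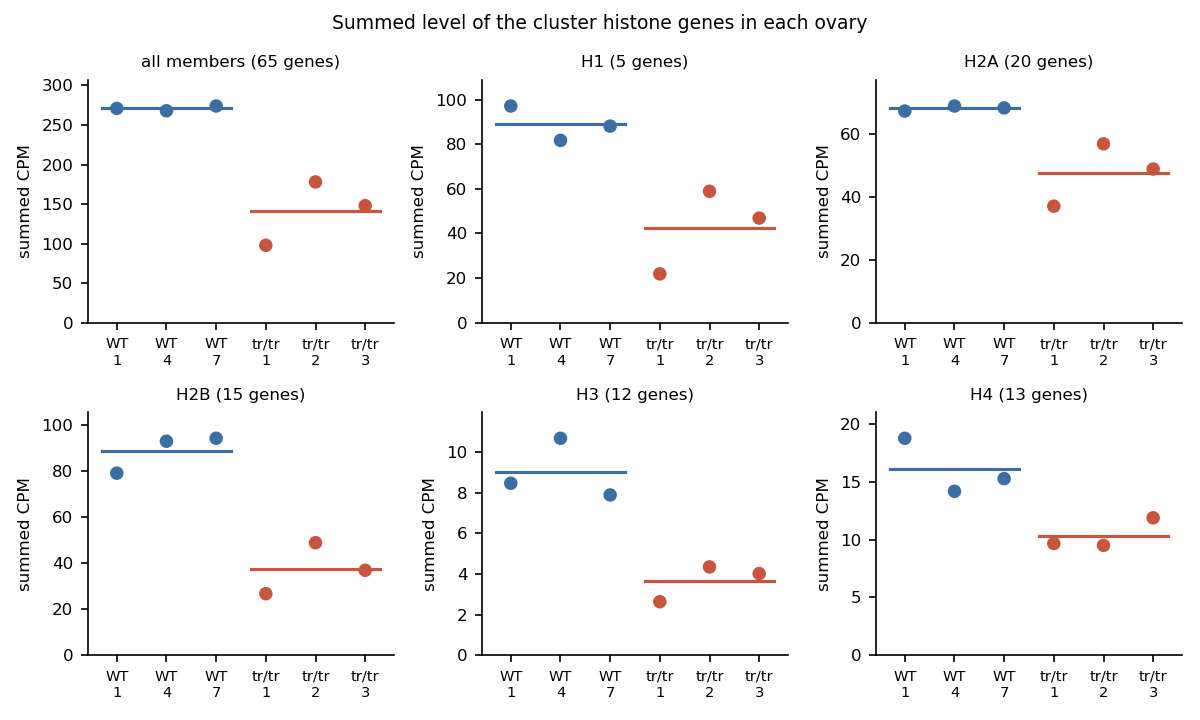
Summed CPM (vertical axis, from 0) of all 65 members and of each histone type in each ovary, with a line at the mean of each genotype. The WT ovaries (blue) lie above the Bnc1tr/tr ovaries (red) in every panel, with a WT to Bnc1tr/tr ratio of 1.43 for H2A and 2.46 for H3.

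Of the 65 members 37 passed edgeR's filter on low counts and were tested, and 28 did not pass it. Among the 37, 6 were lower and 0 higher in Bnc1tr/tr at an adjusted p under 0.05 (edgeR's quasi-likelihood test, two-sided, Benjamini-Hochberg over all 19423 genes). Of all genes tested, 4.19% were lower and 2.88% higher (7.06% in either direction). Hist1h2bh and Hist1h2bb, both called, and Hist1h2bn, not called, passed the filter through the WT ovaries alone. Counts and medians of filtered members in this paragraph, whatever the tool or ovary left out, are therefore not read against those of all genes. When all genes with 10 or more counts were fitted, which does not depend on the genotype, 4 of the 65 members were lower and 0 higher, against 2.97% and 1.89% of all genes, and Hist1h2bh was among the 4. In that fit 53 of the 65 had a log2 fold change below 0 (median -0.88), against 47.6% of all genes (median 0.019). Among the 37 filtered members, 19 were lower and 0 higher at an unadjusted p under 0.05 (12.3% and 11.9% of all genes tested). Of the same 37, DESeq2 called 10 lower and 0 higher (6.9% and 5.56% of all genes). For limma-voom the counts were 3 and 0 (4.04% and 2.67%). Over the 37 members the median log2 fold change was -0.66, and 27 were below 0. Over all genes tested the median was 0.018, and 47.4% were below 0. Over all 65 members, independent of the filter, the ovaries did not overlap in 23 that were lower (35.4%) and in 0 that were higher, against 13.9% and 13.7% of the 24812 genes with 10 or more counts. Without WT replicate 1 these counts were 24 and 3, against 18.4% and 19.2% of all genes. The number of filtered members called lower was then 4 (2.72% of all genes). It was 2 without WT replicate 4, WT replicate 7 or Bnc1tr/tr replicate 3, when 1.13%, 1.97% and 2.03% of all genes were lower. It was 3 without Bnc1tr/tr replicate 1 and 4 without Bnc1tr/tr replicate 2, when 3.1% and 3.3% of all genes were lower.

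**Figure D2:**
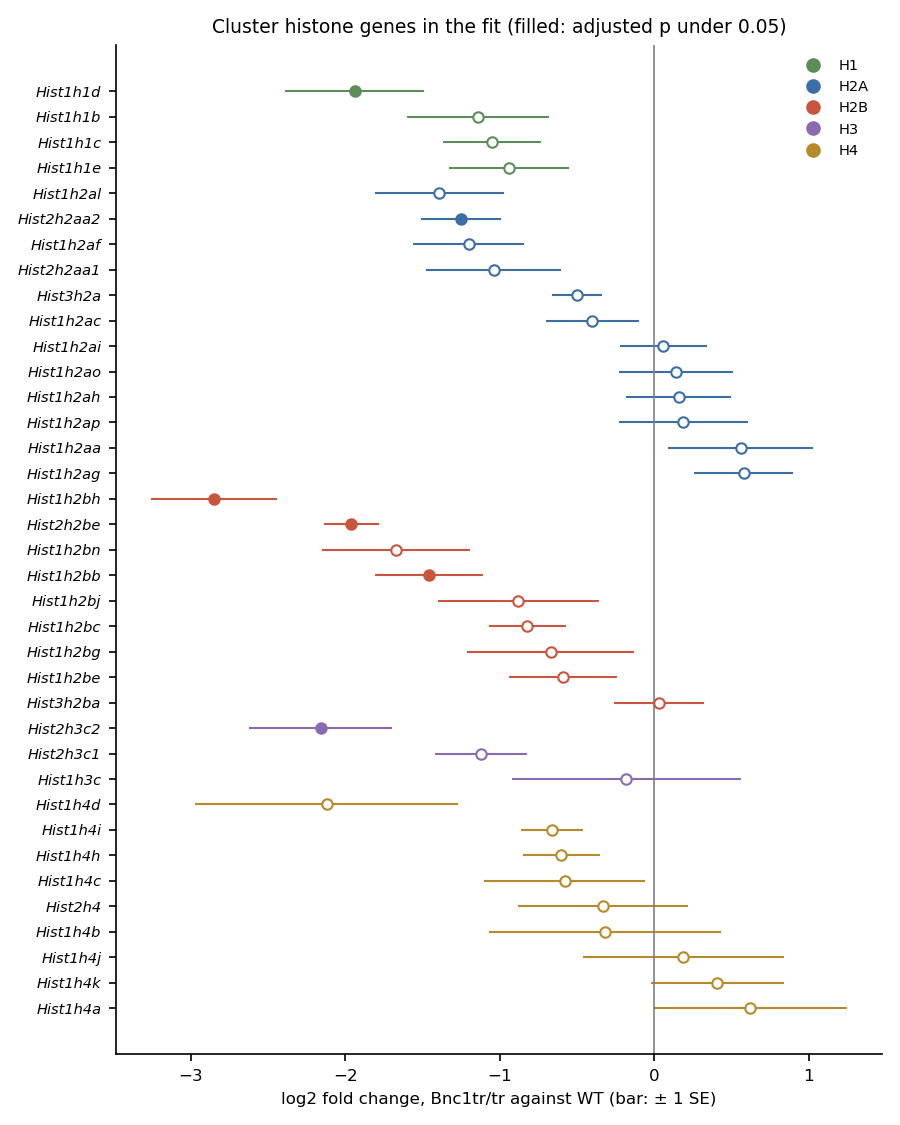
Log2 fold change (horizontal axis, Bnc1tr/tr against WT) of the 37 tested members, coloured by histone type, with bars of 1 SE and filled symbols for an adjusted p under 0.05. The 6 filled symbols run from -2.85 (Hist1h2bh) to -1.25 (Hist2h2aa2), and the 10 members above 0 reach 0.62 (Hist1h4a).

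The H2B genes held 3 of the 6 calls, and 8 of the 9 tested were below 0, with a median log2 fold change of -0.88. Among these 9, Hist1h2bh, Hist1h2bb and Hist1h2bn passed the filter through the WT ovaries alone. In the fit of all genes with 10 or more counts, 2 of the 15 H2B members were lower, against 2.97% of all genes. Below 0 in that fit were 13 of the 15 (median -0.83). Hist2h2be, an H2B gene of cluster 2 (chr3:96221119-96223738, plus strand), was measured at 36.4, 45.6 and 43.7 CPM in WT and 9.18, 13.7 and 9.41 CPM in Bnc1tr/tr. The highest Bnc1tr/tr ovary was thus well below the lowest WT ovary. The mean was 3.9-fold lower (log2 fold change -1.96, SE 0.18, edgeR adjusted p = 0.0018), and no stretch of 100 bases of its transcript was shared with another cluster gene. Hist1h2bh (chr13:23541714-23543392, minus strand), an H2B gene of cluster 1, was at 1.19, 0.786 and 0.724 CPM in WT and 0.142, 0.077 and 0.141 CPM in Bnc1tr/tr. This was the widest gap among tested members, a log2 fold change of -2.85 (SE 0.41, edgeR adjusted p = 0.00804), at 79 counts in WT and 10 in Bnc1tr/tr. Both genes passed the threshold under every alternative that tested them, 13 for Hist2h2be and 12 for Hist1h2bh. Hist1h2bb was at 0.595, 0.514 and 0.414 CPM in WT and 0.178, 0.192 and 0.176 CPM in Bnc1tr/tr, from 12 to 17 counts against 5 in each ovary. Its log2 fold change was -1.46 (SE 0.35, edgeR adjusted p = 0.0469). It passed the threshold in 1 of 12 alternatives and had an adjusted p of 0.0736 in the fit of all genes with 10 or more counts.

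The other 6 tested H2B genes did not pass. Hist1h2bc, the H2B gene with the highest mean over all 6 ovaries, although below Hist2h2be in WT, was at 33.2, 38.3 and 43.1 CPM in WT and 13.8, 29 and 22 CPM in Bnc1tr/tr. The groups did not overlap, and the log2 fold change was -0.82 (SE 0.25, edgeR adjusted p = 0.0875; 0.0106 with DESeq2). Hist1h2be stood at 2.5 ± 0.524 CPM in WT and 1.66 ± 0.677 in Bnc1tr/tr (SD, n = 3 each), with overlapping ovaries. Hist1h2bn had a log2 fold change of -1.67 with an adjusted p of 0.0797 by edgeR, and Hist3h2ba of 0.03. Without Hist1h2bc the summed H2B level was 3.19-fold lower in Bnc1tr/tr, against 2.37-fold with it.

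**Figure D3:**
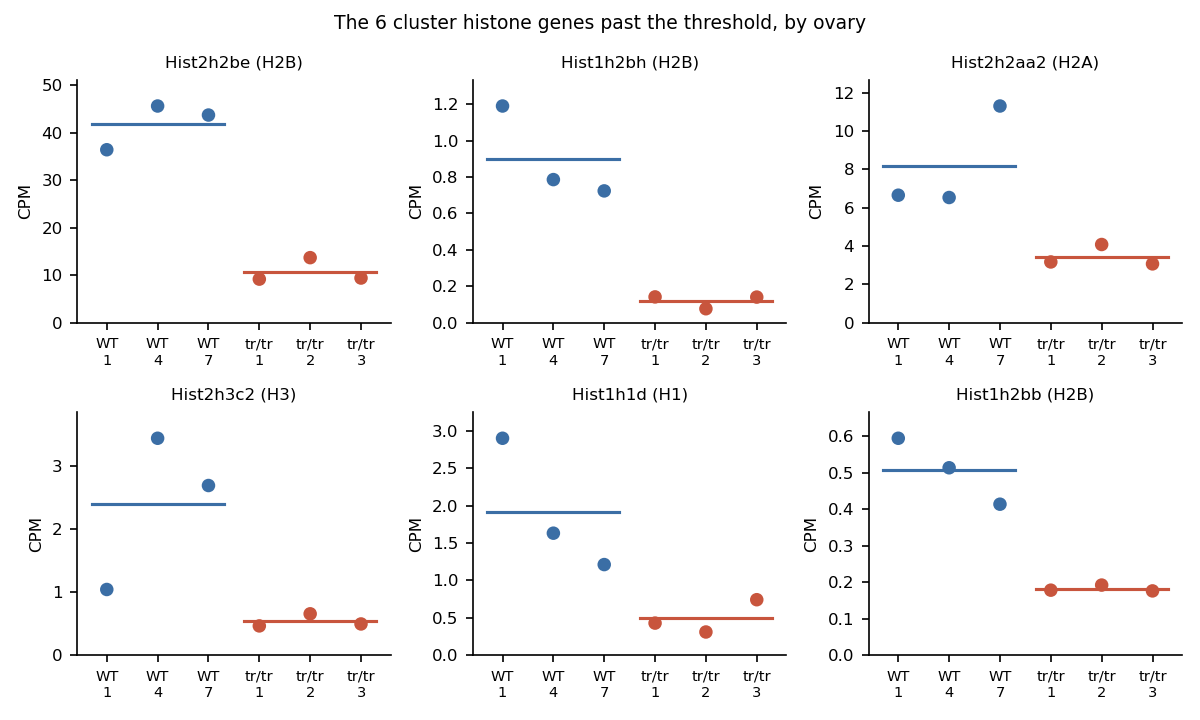
CPM (vertical axis, from 0, on its own scale in each panel) of the 6 members past the threshold in each ovary, with a line at the mean of each genotype (WT blue, Bnc1tr/tr red). In each panel all 3 WT ovaries lie above all 3 Bnc1tr/tr ovaries, and the level runs from 45.6 CPM at most for Hist2h2be to 0.595 CPM at most for Hist1h2bb.

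Among the H3 genes 1 of 3 tested was called lower (4.19% of all genes), and the summed H3 level was 2.46-fold lower in Bnc1tr/tr. Hist2h3c2 (chr3:96238108-96239127) was at 1.04, 3.44 and 2.69 CPM in WT and 0.462, 0.654 and 0.493 CPM in Bnc1tr/tr. WT replicate 1 was the lowest WT ovary, and the log2 fold change was -2.16 (SE 0.46, edgeR adjusted p = 0.0347), past the threshold in 7 of 13 alternatives. Its near copy Hist2h3c1 was at 3.35, 4.8 and 3.55 CPM in WT and 1.14, 2.19 and 2.04 CPM in Bnc1tr/tr (log2 fold change -1.12, edgeR adjusted p = 0.0656; 0.00982 with DESeq2). Since 61.6% of the 100-base stretches of Hist2h3c2 also occur in Hist2h3c1, reads could be split between them, and their sum was 6.29 ± 1.93 CPM in WT and 2.33 ± 0.65 in Bnc1tr/tr, 2.7-fold lower without overlap. Hist1h3c had a log2 fold change of -0.18 (SE 0.74), which was 0.64 without WT replicate 1 and 0.3 without Bnc1tr/tr replicate 1. The other 9 H3 members were below the filter, and in the fit of all genes with 10 or more counts all 12 H3 members had a log2 fold change below 0 (median -1.3).

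Among the H2A genes 1 of 12 was called lower, near the share of all genes (4.19%), and 6 were below 0 and 6 above. Hist2h2aa2 (chr3:96239749-96240276) was at 6.65, 6.53 and 11.3 CPM in WT and 3.17, 4.08 and 3.07 CPM in Bnc1tr/tr, with a log2 fold change of -1.25 (SE 0.26, edgeR adjusted p = 0.033), past the threshold in 9 of 13 alternatives. Hist2h2aa1, which contains every 100-base stretch of Hist2h2aa2, was at 4.91, 8.76 and 9.28 CPM in WT and 1.67, 5.85 and 3.63 CPM in Bnc1tr/tr, and its groups overlapped (edgeR adjusted p = 0.194). How reads were divided between these copies is uncertain, and their sum was 15.8 ± 4.52 CPM in WT and 7.16 ± 2.58 in Bnc1tr/tr, 2.21-fold lower without overlap. Hist3h2a, the most abundant H2A gene and the larger member of cluster 3, was at 37.6, 40 and 36.1 CPM in WT and 20.3, 32.1 and 28 CPM in Bnc1tr/tr. This was a smaller difference without overlap (log2 fold change -0.50, edgeR adjusted p = 0.106; 0.0439 with DESeq2).

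Other H2A genes of cluster 1 did not pass the threshold, and some had a log2 fold change above 0. Hist1h2ao and Hist1h2ap, near copies that share 92.7% of the 100-base stretches of the first, summed to 5.67 ± 2.3 CPM in WT and 6.36 ± 0.892 in Bnc1tr/tr. Hist1h2ag was at 1.23, 0.997 and 1.52 CPM in WT and 1.24, 1.89 and 2.47 CPM in Bnc1tr/tr (log2 fold change 0.58, edgeR adjusted p = 0.315). Its ovaries overlapped, as did those of Hist1h2ai, Hist1h2ah and Hist1h2aa, whose log2 fold changes were 0.06, 0.16 and 0.56. Hist1h2ag, Hist1h2ai and Hist1h2ah share 76.2%, 88.4% and 87.9% of their 100-base stretches with other cluster genes, so the division of reads is uncertain. Hist1h2af was below 0 without overlap (log2 fold change -1.2, edgeR adjusted p = 0.0885), and Hist1h2ac with overlap (-0.4, edgeR adjusted p = 0.469). Hist1h2al, one of the annotated pseudogenes, had the lowest log2 fold change of the tested H2A members, -1.39, which did not pass (edgeR adjusted p = 0.0929). Hist1h2ab and Hist1h2ak, below the filter, had at most 3 counts in each Bnc1tr/tr ovary and more in each WT ovary. Their WT to Bnc1tr/tr ratios were 5.1 (33 against 6 counts, 95% interval 2.11 to 14.9) and 4.48 (29 against 6 counts, 1.83 to 13.2), intervals that cover counting error only. WT replicate 1 held 20 and 17 of these WT counts, and without it the ratios were 2.88 (1.02 to 9.23) and 2.66 (0.923 to 8.63).

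The linker histone genes were below 0 in all 4 tested members. Of these, Hist1h1b reached the limit of the filter in 3 WT ovaries and 1 Bnc1tr/tr ovary, and Hist1h1d in 3 and 2. In the fit of all genes with 10 or more counts, all 5 H1 members were below 0 (median -1.06), against 47.6% of all genes. In that fit 0 of the 5 were called lower, against 2.97% of all genes. Hist1h1c, the most abundant member, was at 89.1, 77.8 and 84.5 CPM in WT and 19.8, 57.2 and 44.2 CPM in Bnc1tr/tr. The Bnc1tr/tr ovaries were spread widely and lay below WT, with a log2 fold change of -1.05 (SE 0.32, edgeR adjusted p = 0.0955; 0.00587 with DESeq2). Without Bnc1tr/tr replicate 1 it was -0.73 (edgeR adjusted p = 0.0255). Hist1h1d (chr13:23553262-23560686) was called lower, at 2.9, 1.63 and 1.21 CPM in WT and 0.427, 0.308 and 0.74 CPM in Bnc1tr/tr. Its log2 fold change was -1.94 (SE 0.45, edgeR adjusted p = 0.0445), and its annotated transcript runs 4884 bases past the stem-loop. It passed the threshold in 4 of 12 alternatives and had an edgeR adjusted p of 0.0503 in the fit of all genes with 10 or more counts. Hist1h1e and Hist1h1b had log2 fold changes of -0.94 and -1.14 with adjusted p values of 0.197 and 0.184 by edgeR.

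None of the 9 tested H4 genes passed the adjusted threshold (edgeR), 3 were lower at an unadjusted p under 0.05, and DESeq2 called 1 and limma-voom 0. Of all genes, 4.19% were lower by edgeR, 12.3% unadjusted, 6.9% by DESeq2 and 4.04% by limma-voom. The adjusted counts are near these shares. Hist1h4i, the most abundant, was at 6.58, 8.43 and 8.62 CPM in WT and 4.2, 4.58 and 6.17 CPM in Bnc1tr/tr (log2 fold change -0.66, edgeR adjusted p = 0.0938; 0.0346 with DESeq2). Hist1h4h was at 3.05, 2.11 and 3.45 CPM in WT and 1.89, 1.81 and 1.97 CPM in Bnc1tr/tr, again without overlap (edgeR adjusted p = 0.19). Hist1h4d was at 2.86, 0.483 and 0.414 CPM in WT and 0.142, 0.462 and 0.247 CPM in Bnc1tr/tr. Its log2 fold change of -2.12 rested on WT replicate 1 and was -0.68 without it. Hist1h4a, Hist1h4k and Hist1h4j had log2 fold changes of 0.62, 0.41 and 0.19, with overlapping ovaries.

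Set beside each other by cluster, cluster 2 held 3 of the 6 calls among 6 tested members, and all 6 were below 0 (median -1.18). Its summed level was 54.5, 70.2 and 71.5 CPM in WT and 16.7, 27.3 and 19.5 CPM in Bnc1tr/tr, 3.09-fold lower. Cluster 1, with 29 tested members, held the other 3 calls, a median of -0.60 and a summed level that was 1.8-fold lower. Of its called members, Hist1h2bh and Hist1h2bb passed the filter through the WT ovaries alone. In the fit of all genes with 10 or more counts, 1 of 52 members of cluster 1 was lower. In cluster 2 it was 3 of 10, against 2.97% of all genes, and 9 of the 10 were below 0. Of the cluster 2 calls, Hist2h2aa2 and Hist2h3c2 have near copies in the same cluster that did not pass, so the division of reads is uncertain. The difference between the clusters was not tested, and Hist2h2be alone made up 61% of the cluster 2 level.

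Of the 14 divergent pairs 10 had both genes in the fit of all genes with 10 or more counts. In 5 of these both log2 fold changes were below 0, in 5 the signs differed and in 0 both were above 0. Of the 14 pairs 4 are given here with their values. Hist2h2ac, which faces Hist2h2be across the 238 bases printed above, had 10, 3 and 7 counts in WT and 13, 8 and 8 in Bnc1tr/tr. In the fit of all genes with 10 or more counts its log2 fold change was 0.60 (edgeR adjusted p = 0.592), against -1.97 for Hist2h2be. In the pair of Hist1h2ac and Hist1h2bc both were below 0, at -0.40 and -0.83 in that fit. Hist1h2ag and Hist1h2bj stood at 0.58 and -0.88, and Hist1h2ak and Hist1h2bn at -2.13 and -1.67. These are differences between members, without a test of the pairs.

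Compared per length of the longest annotated transcript, levels were 39.8 CPM per kilobase for Hist1h1c, 25.9 for Hist1h2bc, 15.1 for Hist3h2a, 11 for Hist2h2aa2 and 10.1 for Hist2h2be as means over all ovaries. In WT Hist2h2be (16), Hist2h2aa2 (15.5) and Hist3h2a (17.7) were close to each other, whereas in Bnc1tr/tr they were at 4.11, 6.52 and 12.5 CPM per kilobase. Tested members with and without the stem-loop in their transcript had median log2 fold changes of -0.63 (26 genes, 5 lower) and -0.82 (11 genes, 1 lower). In 8 of these 11, as in 16 of all 22 members without it, fewer than 30 bases or none are annotated after a stop codon, so most of this split follows where the annotation ends and does not show that the mRNA lacks a stem-loop.

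**Figure D4:**
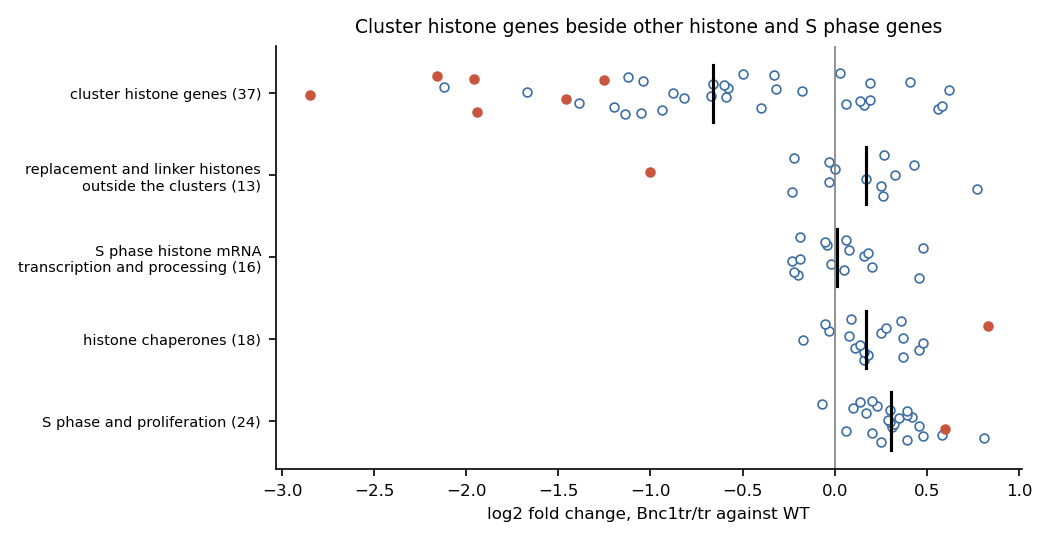
Log2 fold change (horizontal axis, Bnc1tr/tr against WT) of the tested cluster histone genes and of 4 other gene lists, with the number of tested genes in brackets, a black line at each median, and filled symbols for an adjusted p under 0.05. The tested cluster histone genes have a median of -0.66, and the medians of the other lists lie between 0.01 and 0.31. Since 3 of the cluster histone genes shown passed the filter through the WT ovaries alone, the medians are given as description. In the fit of all genes with 10 or more counts the median of all 65 members was -0.88.

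By edgeR, 0 of 24 tested genes of S phase and proliferation were lower in Bnc1tr/tr and 1 was higher. This is near the shares of all genes, 4.19% and 2.88%. At an unadjusted p under 0.05 the counts were 0 and 9 (12.3% and 11.9% of all genes). By DESeq2 they were 0 and 7 (6.9% and 5.56%), and by limma-voom 0 and 1 (4.04% and 2.67%). Of the 24 genes 23 had a log2 fold change above 0 (median 0.31). Cdt1, which loads the replicative helicase, rose from 20.9 ± 1.43 to 31.7 ± 2.48 CPM (log2 fold change 0.60, edgeR adjusted p = 0.0147), although 4 of 6 fits that left out an ovary lost the call. Mki67, a marker of dividing cells, was at 84.5, 70.8 and 66.8 CPM in WT and 92.9, 83.4 and 114 CPM in Bnc1tr/tr (edgeR adjusted p = 0.141). Pcna, the sliding clamp of DNA replication, was at 53.8 ± 7.58 and 66.4 ± 10.6 CPM (edgeR adjusted p = 0.247). Bnc1tr/tr replicate 3 had the highest summed level of this list (1740 CPM, against 1480 and 1340 CPM in Bnc1tr/tr and 1070 to 1380 CPM in WT) and of oviduct epithelium markers (586 CPM, against 65.3 to 195 CPM in the other 5 ovaries), and the part of the latter was not tested. The median of the list was 0.2 without this ovary and 0.18 without WT replicate 7.

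The machinery that makes histone mRNA had 0 calls among 16 genes by edgeR and limma-voom and 2 higher by DESeq2. At an unadjusted p under 0.05, 2 were lower and 2 higher (median log2 fold change 0.01). Shares of all genes lower and higher were 4.19% and 2.88% by edgeR and 4.04% and 2.67% by limma-voom. They were 6.9% and 5.56% by DESeq2 and 12.3% and 11.9% unadjusted. The counts of this list are near these shares. Slbp, which binds the stem-loop, was at 42.5, 46.9 and 35.3 CPM in WT and 65.6, 49.8 and 58.2 CPM in Bnc1tr/tr. It was higher without overlap (log2 fold change 0.48, edgeR adjusted p = 0.0823; 0.0261 with DESeq2). Npat, the coactivator of the histone clusters in S phase, was at 19.9 ± 0.492 and 22.4 ± 2.21 CPM (edgeR adjusted p = 0.34). Of 18 histone chaperones 15 were above 0 and 1, Npm2, a chaperone of oocytes, rose (24.8 ± 3.28 to 43.9 ± 9.13 CPM, log2 fold change 0.83, edgeR adjusted p = 0.0323), a call lost in 5 of 6 fits that left out an ovary. At an unadjusted p under 0.05, 7 chaperones were higher and 0 lower, and DESeq2 called 4 higher and limma-voom 1. By edgeR and limma-voom, 1 of 18 higher is near the shares of all genes given above.

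Of the 13 tested replacement and linker histones encoded outside the clusters, 1 was lower and 0 higher by edgeR and limma-voom, and 1 lower and 2 higher by DESeq2. At an unadjusted p under 0.05, 2 were lower and 3 higher, against 12.3% and 11.9% of all genes. Of all genes, 4.19% were lower and 2.88% higher by edgeR. These shares were 4.04% and 2.67% by limma-voom, and 6.9% and 5.56% by DESeq2. H2afy, which encodes the variant macroH2A1, was at 284, 311 and 314 CPM in WT and 162, 146 and 147 CPM in Bnc1tr/tr (log2 fold change -1.0, edgeR adjusted p = 0.0017). H2afz, which encodes H2A.Z, was at 26.1 ± 0.457 and 35.3 ± 4.26 CPM (edgeR adjusted p = 0.0532), and the oocyte linker histone H1foo at 105 ± 15 and 179 ± 45.7 CPM (edgeR adjusted p = 0.0569). The medians of these lists shift with scaling, and library size alone raises the median of all genes to 0.12.

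Other measures differed between the same ovaries. Of 12 corpus luteum markers 9 were lower in Bnc1tr/tr by edgeR, against 4.19% of all genes. The summed level of the list was 23500 to 28200 CPM in WT and 7370 to 12800 CPM in Bnc1tr/tr, with replicate 1 again the lowest. None of these markers was at 0. Of the 16 oocyte markers 5 were higher by edgeR, 9 by DESeq2 and 4 by limma-voom, and of the 12 granulosa cell markers 2, 3 and 2. Of all genes, 2.88%, 5.56% and 2.67% were higher in these fits. At an unadjusted p under 0.05, 9 oocyte markers were higher, and 5 granulosa cell markers were higher and 1 lower (all genes 11.9% and 12.3%). Both lists had summed levels that overlapped (873 to 1110 against 1080 to 1650 CPM, and 4880 to 6020 against 5400 to 8350 CPM). Their part in the histone result was not tested.

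RNAs that carry no poly(A) tail were a list added after the data were seen. Of 6 tested genes, 2 were called lower in Bnc1tr/tr by edgeR, 5 by DESeq2 and 0 by limma-voom. Among all genes 4.19%, 6.9% and 4.04% were lower in these fits. All 6 had a log2 fold change below 0 (median -2.85), and the summed levels of the list overlapped between genotypes. The 2 called by edgeR, Rn7s1 (6, 1 and 1 counts in Bnc1tr/tr) and Rn7s2 (5, 9 and 6), passed the filter through the WT ovaries alone. The counts and median of the tested genes are therefore not read against those of all genes. In the fit of all genes with 10 or more counts these 2 had edgeR adjusted p values of 0.0268 and 0.0417. Rn7s1, a 7SL RNA gene, was at 37.5, 9.94 and 1.31 CPM in WT and 0.213, 0.0385 and 0.0352 CPM in Bnc1tr/tr (log2 fold change -7.32, edgeR adjusted p = 0.0271). Of the 11 listed genes 10 stood highest in WT replicate 1. Lower in Bnc1tr/tr without overlap were 4 of the 11, against 13.9% of the 24812 genes with 10 or more counts. The ribosomal RNA gene Rn18s-rs5 was at 36300, 14300 and 5910 CPM in WT and 6570, 6200 and 4460 CPM in Bnc1tr/tr. The 45 members under 1 CPM were also highest in WT replicate 1, with sums of 25.9, 14.2 and 12.6 CPM against 10.3, 9.66 and 10.9 CPM, and WT replicate 1 was the highest ovary for 27 of them. The 20 members at 1 CPM or more summed to 245, 254 and 261 CPM in WT, lowest in replicate 1, and to 87.6, 169 and 138 CPM in Bnc1tr/tr. The part of these RNAs' differences in the histone result was not tested. The sources used here do not state whether the libraries were selected for poly(A) RNA or depleted of ribosomal RNA.

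**Figure D5:**
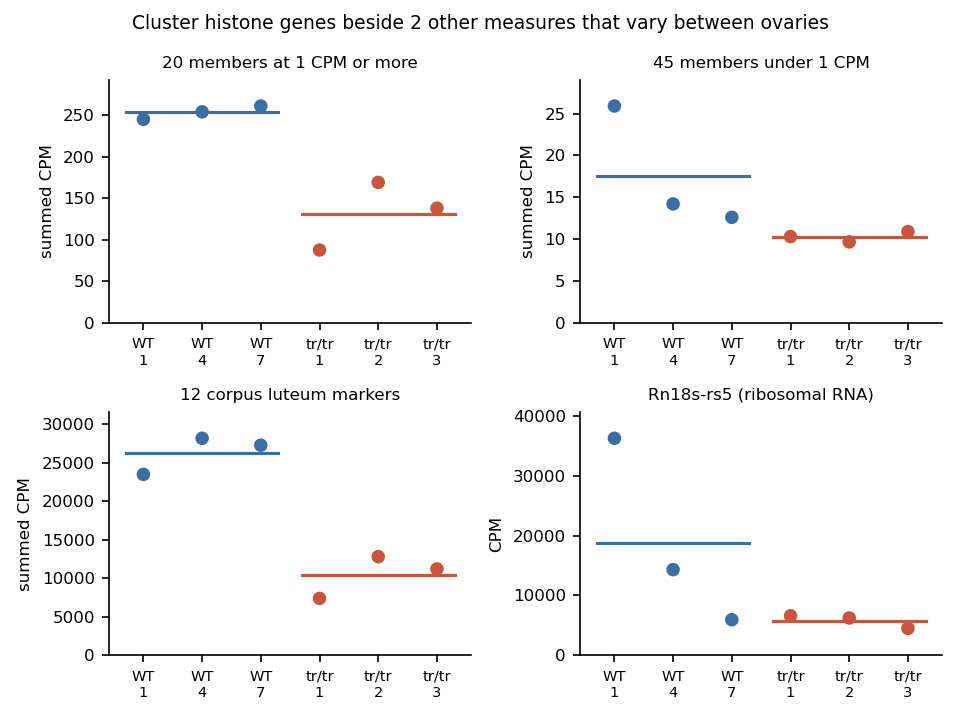
Values in each ovary (vertical axes from 0, summed CPM, or CPM for Rn18s-rs5) of the members at 1 CPM or more, the members under 1 CPM, the corpus luteum markers and the ribosomal RNA gene Rn18s-rs5, with a line at the mean of each genotype (WT blue, Bnc1tr/tr red). WT replicate 1 stands above the other ovaries for the members under 1 CPM (25.9 CPM) and for Rn18s-rs5 (36300 CPM) but not for the members at 1 CPM or more (245 CPM).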

How the data were processed

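Total RNA of whole ovaries was extracted with TRIzol, and Ion Proton sequencing used single-end libraries of the manufacturer's total RNA kit. The authors deposited raw counts per gene symbol, whole numbers without normalization. The submitters' processing notes list the builds mm10 and Sscrofa10.2. The aligner, counting tool, strand setting and treatment of reads that match several copies are not given in the sources used here.

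Counts were filtered with filterByExpr (minimum count 10), TMM-normalized and tested between genotypes by edgeR's quasi-likelihood method (version 4.0.16, under R 4.3.3). P-values were two-sided, adjusted after Benjamini and Hochberg over all genes in the fit, and called at 0.05. Levels are TMM-scaled CPM. Each count adds 0.0302 to 0.0385 CPM. The code was tested on simulated data. Alternatives were DESeq2 size factors or library size, other filters, DESeq2 1.42.0, limma-voom 3.58.1 and leaving out each ovary.

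Named were all members called, per histone type the 3 most abundant and the 2 with the largest change, members at 3 or fewer counts in all ovaries of 1 genotype and above that in all of the other, called genes of the lists, and Slbp, Npat, Mki67 and Pcna. Members of divergent pairs were given together. The other H2A, H2B and H4 members, H2afz, H1foo, Rn7s1 and Rn18s-rs5 were named after their values were seen. The members and lists were chosen with earlier results of these data known. Overlap between copies was measured as shared 100-base stretches of GENCODE M21 transcripts, and all 65 members matched by symbol. No pair of libraries within a genotype matched within sampling noise.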

Additional observations from a re-analysis of the deposited data

How the results depend on the processing

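Cluster histone genes called lower numbered 6, and 3 with at least 10 counts required in every ovary, 10 with DESeq2 and 3 with limma-voom; leaving out 1 ovary gave 2 to 4 (2 without WT replicate 4, WT replicate 7 or Bnc1tr/tr replicate 3, 3 without Bnc1tr/tr replicate 1, 4 without WT replicate 1 or Bnc1tr/tr replicate 2), and no setting called any higher. Hist2h2be and Hist1h2bh passed in every fit that tested them (adjusted p up to 0.0202 and 0.0462), whereas Hist2h2aa2 passed in 9 of 13 and Hist2h3c2 in 7 of 13. The median of the members was -0.88 with no filter or with 10 or more counts summed, when all 65 were tested, and -0.58 to -0.77 with an ovary left out. The summed H2B level without Hist1h2bc had a log2 ratio of -1.67. Genes differing between genotypes numbered 1372, and 2420 with DESeq2; with an ovary left out they ranged from 320 to 1282. With library size only, the median of the chaperones and of the replacement histones was 0.27, and 35.6% of all calls were lower instead of 59.3%; the chaperone median ranged from 0.14 to 0.25 with an ovary left out. Hist1h3c turned to 0.64 without WT replicate 1 and 0.3 without Bnc1tr/tr replicate 1, against -0.55 at the lowest with another ovary left out. The cause was not tested. No paired analysis was possible because the groups share only replicate number 1 and the litter of each library is not given in the sources used here. Low counts limit the 28 members below the filter.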
